A study of Mus musculus with 2 samples.

Results

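MEF2A, a transcription factor of the MADS-box family, was mapped by chromatin immunoprecipitation and sequencing (ChIP-seq) with a MEF2A antibody in CH12.LX cells, a female mouse B-cell lymphoma line of strain B10.H-2aH-4bp/Wts. There were 2 biological replicates from separate biosamples of this 1 line, no treatment is named in the labels, and both form 1 group. The genes described are 6 signalling adaptors, Grap, Grap2, Grb2, Gab1, Gab2 and Sh3bp2, of 20583 protein-coding genes with a usable transcription start site (TSS). Grap was chosen by its number of MEF2A peaks near the TSS, the highest in the optimal set, and the others because they are its relatives or act with them, so the counts, ranks and signals below are descriptions with no test. A peak was given to a gene when its summit lay in the gene or within 50 kb of its outermost TSS. This rule gave 53 of the 31497 peaks of the optimal mm10 set, which passed the irreproducible discovery rate (IDR) filter, and 28 of the 16839 peaks of the mm9 list. The files hold peaks and no RNA, so neither the expression of these genes nor the cell type was measured, and read depth is unknown.

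GRB2 is an adaptor with an SH2 domain that binds phosphorylated tyrosines and SH3 domains that bind proline-rich partners, and it brings the exchange factor SOS, which activates RAS, to activated receptors. GRAP and GRAP2 (also called GADS) are its relatives in blood cells, and GRAP2 is known for linking SLP-76 to LAT under the T cell receptor. GAB1 and GAB2 are docking proteins held by GRB2, and once phosphorylated they bind the phosphatase SHP2 and the p85 subunit of PI3 kinase. SH3BP2 is an adaptor that binds ABL and SYK family kinases and takes part in B cell receptor signalling. MEF2 factors bind an AT-rich DNA element and act downstream of calcium and MAP kinase signals.

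The sequences shown are those of the strongest mm9 peak of each gene and of those with the MEF2 consensus. They cover 201 bases of the plus strand centred on the summit, except the Grap2 promoter, which is from RefSeq on GRCm38.p6 and starts 250 bases before a TSS. Capitals mark exact matches, on either strand, within 50 bp of the summit (anywhere in the promoter) to the MEF2 consensus, the NF-kB element, AP-1 (TGANTCA), the ETS-IRF composite (GGAA and GAAA with any 2 bases between them), RUNX (TGTGGTT), the octamer (ATGCAAAT), PU.1 (GAGGAAGT) or EBF1 (TCCC and GGGA with any 2 bases between them). The PU.1 and ETS-IRF forms share bases and can overlap.
Grap2 promoter, chr15:80623233-80623532 (mm10, plus strand), MEF2 consensus: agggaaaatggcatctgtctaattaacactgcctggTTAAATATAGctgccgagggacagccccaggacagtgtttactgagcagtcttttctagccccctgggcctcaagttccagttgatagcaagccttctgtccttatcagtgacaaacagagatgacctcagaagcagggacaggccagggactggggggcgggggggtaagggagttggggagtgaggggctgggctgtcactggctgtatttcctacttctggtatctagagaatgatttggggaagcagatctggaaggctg
Grb2 intron, chr11:115532280-115532480 (mm9), RUNX and MEF2 consensus: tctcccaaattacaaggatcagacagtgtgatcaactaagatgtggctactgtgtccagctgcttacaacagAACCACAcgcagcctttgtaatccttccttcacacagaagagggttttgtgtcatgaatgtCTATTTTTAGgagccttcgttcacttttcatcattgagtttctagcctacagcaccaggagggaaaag
Grb2 intron, chr11:115554225-115554425 (mm9), PU.1 and ETS-IRF: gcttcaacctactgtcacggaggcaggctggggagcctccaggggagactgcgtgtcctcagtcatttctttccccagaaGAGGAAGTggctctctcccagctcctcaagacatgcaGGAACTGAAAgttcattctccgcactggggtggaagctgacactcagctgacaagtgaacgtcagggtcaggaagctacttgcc
Gab1 intron, chr8:83376458-83376658 (mm9), AP-1: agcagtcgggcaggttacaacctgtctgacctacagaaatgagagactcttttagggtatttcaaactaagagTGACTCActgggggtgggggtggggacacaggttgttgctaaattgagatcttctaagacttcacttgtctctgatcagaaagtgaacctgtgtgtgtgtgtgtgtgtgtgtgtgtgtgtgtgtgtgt
Upstream of Gab2 in a Nars2 intron, chr7:104209579-104209779 (mm9), MEF2 consensus and PU.1: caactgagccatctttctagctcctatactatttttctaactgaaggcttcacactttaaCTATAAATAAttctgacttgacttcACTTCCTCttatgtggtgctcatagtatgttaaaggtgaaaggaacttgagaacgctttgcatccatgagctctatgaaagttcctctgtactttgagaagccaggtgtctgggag
Gab2 intron, chr7:104446896-104447096 (mm9), octamer: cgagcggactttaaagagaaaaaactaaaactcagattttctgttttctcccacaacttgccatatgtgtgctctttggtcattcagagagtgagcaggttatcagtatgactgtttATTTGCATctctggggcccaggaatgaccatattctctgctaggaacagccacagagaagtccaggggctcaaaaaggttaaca
Downstream of Grap in a Slc5a10 intron, chr11:61489014-61489214 (mm9), NF-kB: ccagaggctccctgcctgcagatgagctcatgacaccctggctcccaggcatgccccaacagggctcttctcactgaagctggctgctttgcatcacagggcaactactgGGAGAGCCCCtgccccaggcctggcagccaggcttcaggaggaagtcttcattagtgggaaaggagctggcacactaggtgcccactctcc
Upstream of Sh3bp2, chr5:34863589-34863789 (mm9), no match: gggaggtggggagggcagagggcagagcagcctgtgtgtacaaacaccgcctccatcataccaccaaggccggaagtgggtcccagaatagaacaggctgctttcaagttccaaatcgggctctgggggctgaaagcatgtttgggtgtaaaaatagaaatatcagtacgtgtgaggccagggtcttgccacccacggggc

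Grap carried 28 optimal peaks, and its relatives carried 10 (Grb2), 6 (Grap2), 5 (Sh3bp2), 3 (Gab2) and 1 (Gab1). The median over protein-coding genes was 2. All 6 members had a peak under the rule, against 70.0% of all protein-coding genes, so having a peak sets them little apart. Counting only summits within 50 kb of the TSS, Grap again had 28, the highest number of any gene and shared with its neighbour Fam83g, and the 99th percentile over genes was 14. Within 10 kb of the TSS, Grap had 15, and no other gene had as many. These are the values that chose Grap and support nothing further. With gene bodies included, 12 genes had more peaks than Grap and 0.0729% of genes had at least as many. Gene bodies widen the search for long genes: the members ran from 19.5 kb (Grap) to 227 kb (Gab2).

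**Figure D1:**
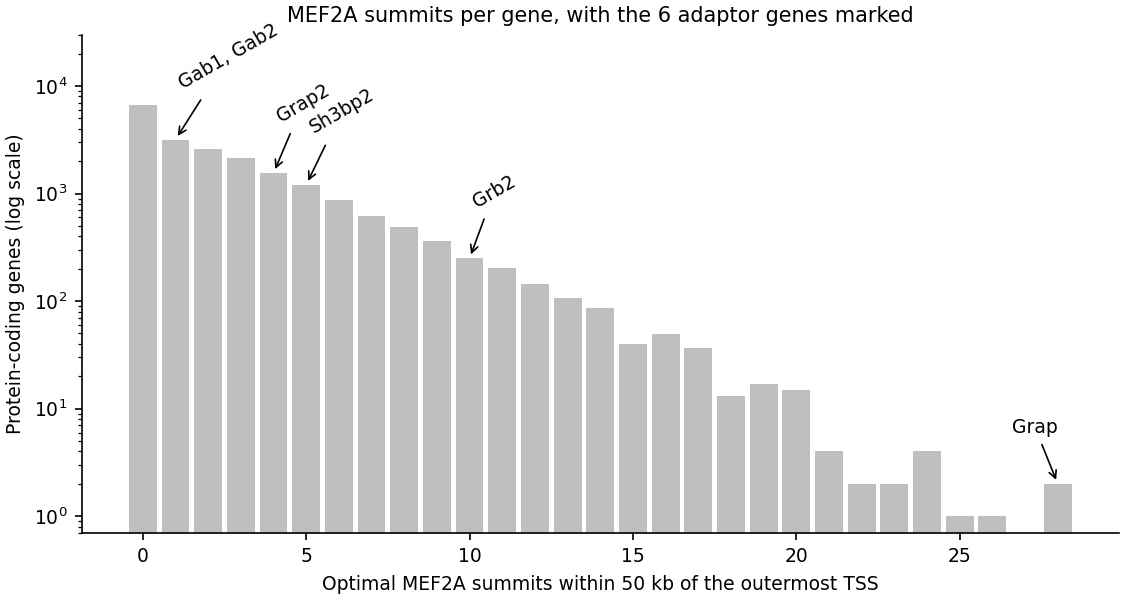
The number of protein-coding genes (vertical axis, log scale) is plotted by the number of optimal MEF2A summits within 50 kb of the outermost TSS (horizontal axis), with arrows at the 6 adaptor genes. Grap stands at the far right with 28 summits, Grb2 at 10, Sh3bp2 at 5, Grap2 at 4, and Gab1 and Gab2 at 1.

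The peaks of Grap (chromosome 11, 61653321 to 61672777, plus strand, mm10) fell into 3 stretches: 12 upstream of the gene, 9 within it and 7 beyond its 3' end. The strongest lay upstream. The peak at 61644617 to 61644819, 8584 bp upstream of the TSS, had a signal of 282 and ranked 204 of 31497, with rank 191 in replicate 1 and 234 in replicate 2. A peak at 61647221 to 61647431, 6008 bp upstream, had a signal of 267 and rank 248, with ranks 275 and 214 in replicates 1 and 2. Both replicates thus placed these peaks among their 300 strongest of 300000 intervals. Signals are the values the authors gave their peaks, and here they only order the peaks of 1 list.

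A further strong peak covered the Grap TSS itself. It spanned 61652968 to 61653327 with the summit 173 bp upstream, a signal of 158 and rank 1033, and it ranked 945 in replicate 1 and 1233 in replicate 2. Of all protein-coding genes, 44 (0.214%) had a peak within 1 kb of the TSS with a signal at least as high, whereas 29.3% had any peak there. In all, 10 summits lay between the TSS and 9883 bp upstream, with signals from 16.9 to 282. The other upstream peaks of this stretch were weaker, at signals of 54.8 (5274 bp), 54.4 (2309 bp), 40.0 (7564 bp), 35.7 (9883 bp) and 29.7 (3556 bp), with 2 more below 18. The remaining pair of upstream peaks stood apart, 32789 and 33385 bp from the TSS, with signals of 58.6 and 37.4. Between them and the nearest peak of the upstream stretch lay the longest gap of the locus, 22906 bp, against a median of 1295 bp between neighbouring summits.

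Inside Grap the peaks were of middling to low rank. The 9 intragenic peaks had signals from 48.9 to 14.7 and ranks from 9152 to 29354. The 5 nearest to the TSS followed each other between 3392 and 7844 bp after the TSS, with signals of 48.9, 43.3, 38.6, 36.0 and 33.2, each lower than the one before. The median signal of all optimal peaks was 34.9. The peak 14397 bp after the TSS (signal 23.9) was the 1 member peak with no overlapping interval in replicate 1, and in replicate 2 it ranked 20527.

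Beyond the Grap gene, 7 peaks lay over Slc5a10, and 2 of them also over Fam83g. The strongest was at 61675432 to 61675791, 22291 bp after the Grap TSS, with a signal of 93.4, rank 2985 and rank 2917 in both replicates. The summits of 8 of the 28 peaks were closer to the Fam83g TSS, 30737 bp away from that of Grap, than to any other, and 26 of the 28 also fell into the window of Fam83g. The count of Grap is therefore largely shared with that neighbour, and the peaks do not show which gene they act on. By nearest TSS alone, Grap kept 20 peaks. The outermost peak inside the window, at 45753 bp, ranked 8267, and the first outside it, 50430 bp upstream, ranked 2948. Of the 53 member peaks, 39 (73.6%) were in the conservative IDR set as the same interval, 19 of them at Grap, against 73.2% of all optimal peaks.

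**Figure D2:**
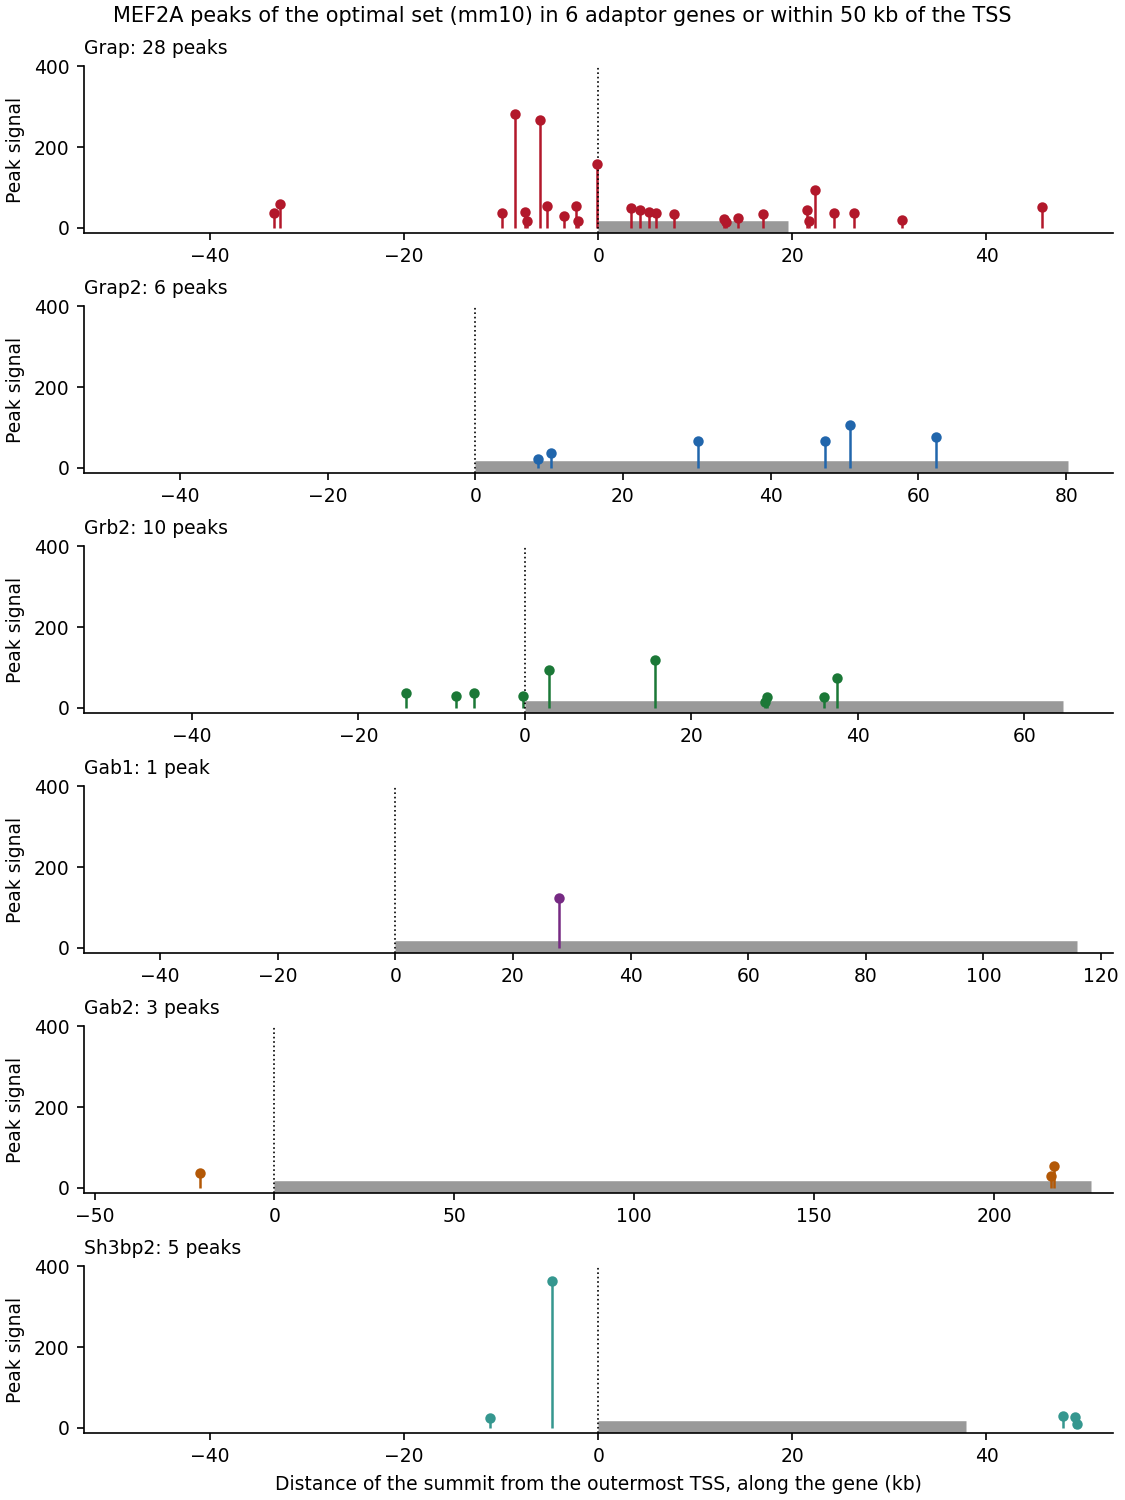
Each panel shows 1 gene, with the distance of the summit from the outermost TSS along the gene in kb (horizontal axis) and the authors' peak signal (vertical axis). Points with stems are optimal peaks, the grey bar is the gene and the dotted line the TSS; horizontal scales differ between panels. Grap has 28 peaks on both sides of its TSS, Sh3bp2 a single strong peak of signal 364 upstream, and Gab1 and Gab2 few.

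Intervals that overlap inflate these counts slightly. In 4 places at Grap, and 1 each at Grb2 and Sh3bp2, a weaker interval overlapped a neighbouring stronger one by part of its width, and both were matched to the same interval in each replicate. Merged, Grap had 24 separate regions and the 6 genes together 47.

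Grap2 (chromosome 15, 80572597 to 80652854) had 6 peaks, all inside the gene as RefSeq gives it. The strongest, at 80623251 to 80623341, had a signal of 107, rank 2300, and ranks of 2982 in replicate 1 and 2065 in replicate 2. It lies 50691 bp from the outermost TSS but only 195 bp upstream of the TSS in the RefSeq promoter table, so its interval falls within the promoter printed above. The element there, TTAAATATAG, was also found in the mm9 list at chr15:80453699-80453708, in a peak of rank 2063 whose summit lay 217 bp upstream of the Grap2 TSS of GENCODE. The MEF2 consensus occurs in 3.19% of 32851 RefSeq promoters of the same length. Next came peaks 11504 bp after that TSS (signal 75.7), and 3492 and 20745 bp before it (67.2 and 66.6). The other 2, over 40 kb before it, had signals of 36.6 and 22.9. Of the 6 peaks, 5 stood in the stronger 50% of the optimal set, as did 18 of the 28 at Grap. The count of Grap2 rested on the replicates used: the 31497 strongest intervals of replicate 2 alone gave 10 peaks and those of replicate 1 alone gave 7.

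Grb2 (chromosome 11, 115644045 to 115708597, minus strand) had 10 peaks, 6 in the gene and 4 upstream of it. The strongest, 15581 bp after the outermost TSS at 115692836 to 115693195, had a signal of 119 and rank 1860, with ranks of 1283 in replicate 1 and 2924 in replicate 2. Another intronic peak, 2840 bp after that TSS, had a signal of 94.7 and ranks of 2688 and 3224 in replicates 1 and 2. One more, 37524 bp after it, had a signal of 73.5. The peak closest to the outermost TSS, 207 bp upstream, was weak (30.5, rank 19000), and 18.5% of all genes had a peak at least as strong within 1 kb. No summit lay within 5 kb of the TSSs in the RefSeq promoter table, which are more than 8 kb inside the gene. The strongest intervals of replicate 1 alone, as many as the optimal set holds, gave 15 peaks at Grb2, and those of replicate 2 gave 12. The 3 strongest peaks lay upstream and at the TSS at Grap, and in the gene body at Grb2.

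Of the docking proteins, Gab1 (chromosome 8, 80764431 to 80880519, minus strand) had its only peak 27838 bp into the gene, at 80852501 to 80852860. It ranked 1729 in the optimal set, 1675 in replicate 1 and 2000 in replicate 2. The signal was 124, which is higher than at any peak of Grap2, Grb2 or Gab2. Gab2 (chromosome 7, 97081751 to 97308951, plus strand) had 3 peaks, none of them within 20 kb of the TSS. A pair lay near the 3' end of the gene, 216735 and 215946 bp after the TSS, with signals of 53.7 and 29.2. Both were nearer to the TSS of Kctd21 (33822 and 34611 bp from it) than to that of Gab2. The other, 20585 bp upstream and inside Nars2, had a signal of 37.1. Replicates differed in rank at the stronger of the pair, with 17103 in replicate 1 and 6094 in replicate 2. Gab2 had no peak in the strongest 10%.

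Sh3bp2 (chromosome 5, 34525784 to 34563639, plus strand) carried the strongest peak of all 6 genes. It lay 4742 bp upstream of the outermost TSS at 34520911 to 34521186, with a signal of 364 and rank 47, and it ranked 37 in replicate 1 and 76 in replicate 2. Sh3bp2 was its nearest gene by TSS, and 0.321% of protein-coding genes had a peak at least as strong under the rule. The RefSeq promoter table places the Sh3bp2 TSSs further in, the nearest 22323 bp from this summit. No peak lay inside the gene. The other 4 were weak (signals from 9.06 to 30.6) and nearer to the TSSs of the neighbours Tnip2 (1 peak, 645 bp from it) and Add1 (3 peaks, from 40 to 1486 bp).

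Of the 53 peaks, 52 were overlapped by 1 bp or more by an interval in both replicate lists, against 97.6% of all optimal peaks. These lists hold 300000 intervals of peaks and background each, so an overlap alone says little. When only the 31497 strongest intervals of each list counted, 37 of 53 (69.8%) were found in both, 21 of 28 for Grap and 16 of 25 for the other 5 genes, against 64.6% of all optimal peaks. Replicate 1 gave the better rank to 29 peaks and replicate 2 to 22, with 1 equal. By the ratio of the ranks, the widest split at Grap was at 26315 bp after the TSS, with rank 4467 in replicate 1 and 45545 in replicate 2. At Grb2, the peak 35971 bp after the TSS had rank 11551 in replicate 1 and 58007 in replicate 2.

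**Figure D3:**
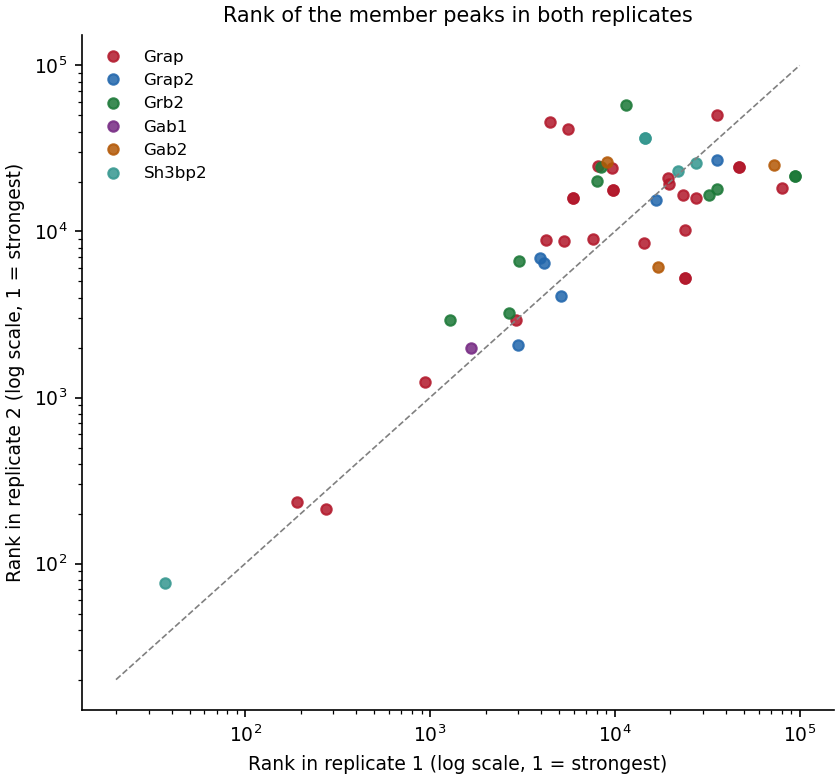
Each point is a member peak, placed by the rank of its overlapping interval in replicate 1 (horizontal) and in replicate 2 (vertical), both on log axes with 1 the strongest, coloured by gene; the dashed line marks equal ranks. The Sh3bp2 peak (37 and 76) and the Grap peaks (191 and 234, 275 and 214) stand at the strong end near the line, and the Grap peak 26315 bp after the TSS (4467 and 45545) lies far from it.

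In the mm9 list, for which both replicates had been aligned to that build, Grap had 10 peaks, Grb2 8, Grap2 5, Gab2 2, Sh3bp2 2 and Gab1 1. All 6 genes had a peak there, against 54.6% of protein-coding genes of GENCODE vM1. By number within 50 kb of the TSS, Grap was 70th among genes on mm9 and not first. Its strongest mm9 peak was the one in the Slc5a10 intron printed above, 22347 bp after the TSS (rank 3207). No mm9 summit lay between 32.7 kb upstream and 3.45 kb downstream of the Grap TSS in the list used here. That stretch of distances holds the 10 upstream mm10 peaks nearest to the TSS, among them those of rank 204, 248 and 1033. All 10 mm9 summits of Grap lay within 200 bp of an optimal summit by distance from the TSS, and 11 of the 28 optimal peaks of Grap (39.3%) had such a match. Of all 25797 optimal peaks in the window of a gene annotated on both builds, 41.8% had one. Of the 779 of these with rank 1033 or better, 73.4% had one, and none of the 3 at Grap did. Differences between the annotated TSSs also end a match. It is not known whether the mm9 list as used here is whole, which limits the mm9 counts, the order of genes by them and the stretch without summits at Grap. The cause of that stretch was not tested, and sequence under those peaks was not analysed here.

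**Figure D4:**
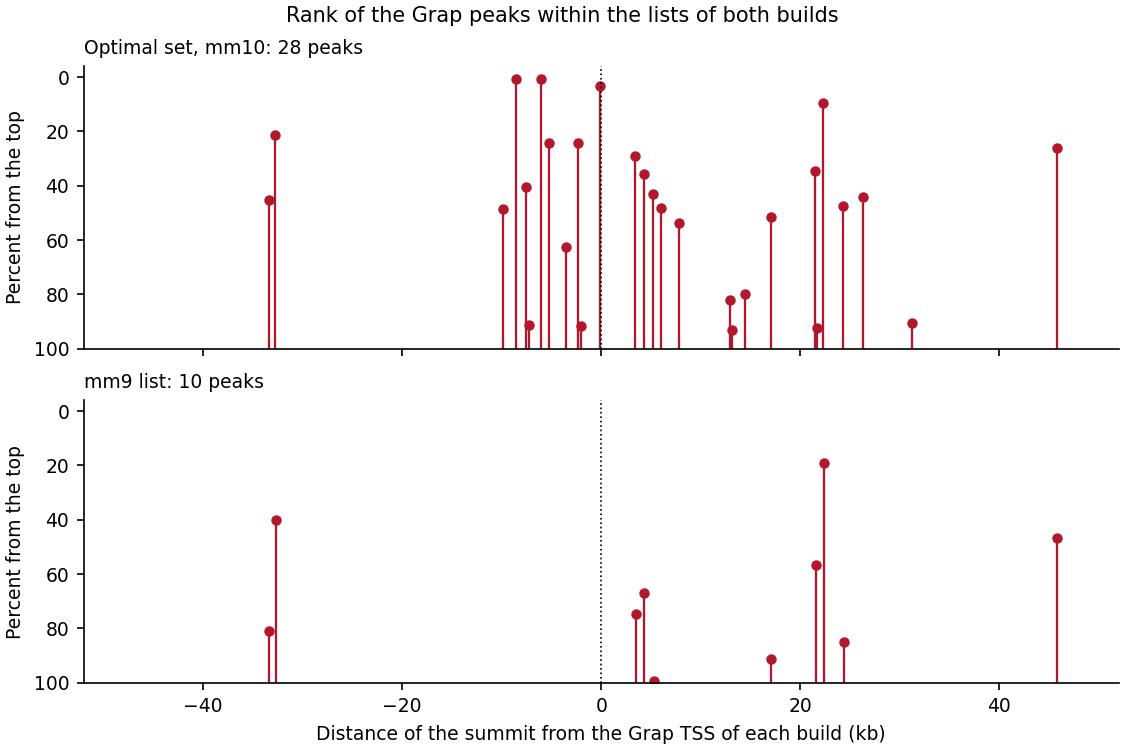
For Grap, the rank of each peak as a percent from the top of its list (vertical axis, 0 at the top for the strongest) is plotted by the distance of the summit from the TSS of each build in kb (horizontal axis), with the optimal mm10 set above and the mm9 list below. The mm10 panel has 28 peaks and the mm9 panel 10, with no mm9 peak between 32.7 kb upstream and 3.45 kb downstream of the TSS.

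The other strong peaks were held on mm9. The Sh3bp2 peak, 4798 bp upstream of the mm9 TSS, ranked 60 of 16839 there. The Gab1 peak, 27820 bp into the gene and intronic, ranked 1954. Grb2 had its strongest mm9 peak 15586 bp after the outermost TSS (rank 1979), in an intron, and 6 of its 8 mm9 peaks had an mm10 partner at a like distance. A Grb2 peak in an exon near the 3' end, 62880 bp after that TSS (rank 11658), had none. Grap2 was the only member with an mm9 summit within 1 kb of a transcript's TSS, which 16.5% of genes had. Of the 28 mm9 peaks, 2 lay in exons, the Grb2 one and a peak of Sh3bp2 in Add1.

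The MEF2 consensus lay within 50 bp of the summit in 3 of the 28 mm9 peaks (10.7%), against 7.13% of all 16839. Neighbouring peaks of chosen genes are not independent draws, so these shares are descriptions and the difference was not tested. The 3 were the Grap2 promoter peak, the Grb2 peak 37531 bp after the TSS and the Gab2 peak 20582 bp upstream. None of the 10 Grap peaks had one, but the mm9 list lacks the strong mm10 peaks upstream and at the Grap TSS. Those of rank 204, 248 and 1033 were therefore not searched. At Grb2 the element CTATTTTTAG at chr11:115532413-115532422 was also the 1 match to the strict palindromic form, which 3.64% of all mm9 peaks held. This site runs past the end of the called interval, which stops at 115532420. Over whole intervals, no member peak held the strict form, against 4.36% of all mm9 peaks. The Gab2 site, CTATAAATAA, is at chr7:104209639-104209648. The strongest member peaks, at Sh3bp2 and Gab1, had no match to the consensus in this window. The printed Sh3bp2 sequence does hold TAAAAATA, a match to the consensus without its outer bases, which extends beyond this window. That shorter core was found in 4 of 28 peaks within 50 bp (11.2% of all) and in 5 within 100 bp (14.9%).

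Each element of other factors of blood cells was found in 4 or fewer of the 28 peaks. PU.1 was found in 4 peaks (14.3%, against 3.24% of all mm9 peaks), 1 each at Grap, Grap2, Grb2 and Gab2. Several elements were searched in peaks of chosen genes, so this share is a description and enrichment was not tested. At Grap2 the PU.1 site overlapped a match to the ETS-IRF composite and at Grb2 it stood beside one. No other member peak held that composite (4.39% of all). AP-1 was found in 3 (12.2% of all): at Gab1, at Grap2 3514 bp upstream, and near Grap 45782 bp after the TSS. NF-kB was found in 2 (7.0% of all), the octamer in 1 (3.12%), at the peak near the 3' end of Gab2, RUNX in 1 (5.99%) and EBF1 in none (1.21%). Of the 28 peaks, 16 held none of the elements searched (57.1%, against 58.9% of all mm9 peaks), and 7 of these were at Grap. The base composition of the 101 bases around the summit had a median of 55.4% GC at Grap, 52.5% over the members and 49.5% over all mm9 peaks. The values for Grap leave out its strongest mm10 peaks, which had no mm9 partner and were not searched. No match says only that these letters are not in the window.

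Among genes that work beside these adaptors, peaks were common. The gene lists were drawn up with earlier results of these data known, so their shares are descriptions and support nothing further. Of 28 partners of GRB2, GAB and SH3BP2 proteins, 26 had a peak under the rule (92.9%, against 70.0% of all genes) and 18 had one within 1 kb of the TSS (64.3%, against 29.3%). The strongest were at Lat2, which encodes a docking protein of B cells (signal 369, rank 40), Rasgrp3, a RAS exchange factor (275), Cblb, a ubiquitin ligase (273), and Plcg2, the phospholipase of B cell receptor signalling (269). Themis and Plcg1 had none. Of 25 other signalling adaptors, 21 had a peak (84.0%) and 8 within 1 kb (32.0%). Grb10 (419, rank 12), Sla (285), Crk (266) and Grb7 (188) were strongest, and Nck1, Sh2d1a, Bcar1 and Skap2 had none. Within 1 kb, 2 of the 6 members had a summit, those of Grap and Grb2, and Grap2 joined them when the TSSs of the RefSeq promoter table counted. The median number of peaks was 5.5 in the members, 6.5 in the partners and 4 in the other adaptors. No gene of either list reached the 28 of Grap: the most were 16 among the partners, at Plcg2, and 20 among the other adaptors, at Sla. In the mm9 list, 21 of 26 partners and 21 of 25 other adaptors had a peak, against 54.6% of all genes.

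The genes most like Grap in the number of summits within 50 kb of the TSS were Fam83g (28), which shares most of them, Trim7 (26), Il13 (25), Il4 (24) and Rnf157 (24). Trim7 and Rnf157 encode ubiquitin ligases, and Il4 and Il13 are neighbouring cytokine genes. All 5 lie on chromosome 11, as Grap and Grb2 do, but Il10 (chromosome 1) and Cd86 (chromosome 16) also had 24 and came after by summed signal. Of the 10 other genes with the most, 6 lay on chromosome 11. These include Fam83g beside Grap, the neighbours Il4 and Il13, and a gene close to Trim7. Their windows overlap, so they are not separate loci. Chromosome 11 held 11.5% of optimal peaks with 7.67% of the genes, and its genes had a median of 4 peaks, against 2 on the other chromosomes; its part in the count of Grap was not tested. With gene bodies included, long genes led: Foxp1 (52), Ebf1 (48), Prkca (47), Atxn1 (41) and Hivep3 (39), which span from 390 to 597 kb.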

How the data were processed

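MEF2A ChIP-seq peak lists of 2 replicates were used, 5 on mm10 and 1 on mm9. Per the texts deposited with the files, each replicate has a relaxed list called with a control file, a pooled list was called on both, and the optimal and conservative IDR sets derive from these; the mm9 list derives from both alignments. The sources used here name no caller or aligner. The signal is the value the authors deposited for each peak, and was compared by rank within a list. The score in the deposited q-value column, below 0 in part, only broke ties.

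Genes on mm10 came from RefSeq (GRCm38.p6), with strand by symbol from GENCODE vM1 (20583 of 21900 genes, 94.0%). RefSeq promoter sequences were matched for 4 of the 6 genes (not Grap and Gab2). The mm9 reference sequence covered every peak on 20 chromosomes, and no coordinates were converted. The outermost TSS of each gene was used. Motifs were exact matches on both strands. Members, lists and rules were chosen with earlier results of these data known. Genes named include the members, Grap's neighbour, and genes that hold a member peak or have the nearest TSS. These nearby genes, Slc5a10, Nars2, Tnip2, Add1 and Kctd21, were named after their values were seen. Also named are the 5 genes with the most and the 5 with the closest counts, and the 4 strongest and the peakless of each list. Il10 and Cd86, tied in count, were added after their values were seen. Of the partner list, 28 of 29 symbols matched (not Themis2). Window counts and motif search were checked on simulated data. Tools were matplotlib 3.10.9, scipy 1.17.1, pandas 2.3.3, numpy 2.4.6 and Python 3.11.15. Coordinates are 1-based.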

Additional observations from a re-analysis of the deposited data

How the results depend on the processing

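The Grap count (28) ranged from 19 (10 kb window) to 33 (100 kb) over windows, was 20 by nearest TSS, 26 in the conservative set and 24 with overlapping intervals merged, a setting added after seeing the data. Taking the 31497 strongest intervals of 1 replicate alone gave 24 to 28, 54 to 60 for the 6 genes together (53) and 2 members with a summit within 1 kb. Among single genes, Grap2 (6) had 10 without replicate 1 and Grb2 (10) had 15 without replicate 2. In the stronger 50% of the optimal set the counts were 18 for Grap and 32 for the 6 genes, with 1 member, Grap, within 1 kb of the TSS. With the mm9 list they were 10, 28 and 1 (Grap2), and 1 with the TSSs of all transcripts (Grap2). These lists hold fewer peaks. Within 50 bp of the summit, the strict MEF2 form left 1 of the 3 mm9 matches, and the core without its outer bases gave 4. Over whole intervals, 0 of 28 peaks held the strict form (4.36% of all mm9 peaks) and 6 the core (18.8%). Requiring 50% of a peak to be covered left 50 member peaks found in both replicates, against 52. Both gene lists stayed within 1.5 times their counts in the 8 settings, also added later. No paired analysis was possible because there is 1 group. Without read counts, counting error per peak is unknown.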

Other observations

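The conservative IDR set was not nested in the optimal one. Of its 28217 intervals, 23045 were also in the optimal set, which is 73.2% of the optimal peaks, and 5172 were not. At Grap it held 26 peaks, 19 of them shared and 7 not in the optimal set, with signals from 8.43 to 20.5. It left out 9 optimal peaks of Grap, with signals up to 37.7. Grap2 had 1 further conservative peak (46.6) and Grb2 had 2 (20.1 and 28.6).

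Grb2 gained the most peaks when the window was widened: 23 within 100 kb or in the gene, against 10 with 50 kb. Gab1 kept 1 and Grap2 kept 6.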
